A study of Mus musculus with 5 samples.

Results

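The promoters of olfactory receptor genes were examined for the chromatin contacts they made in the embryonic mouse gonad, in Sertoli and pre-granulosa cells. Members were the baits on chromosomes 1 to 9 that carry a gene symbol of the Olfr series, a bait being the promoter fragment or bin from which contacts were read, and they were taken with their contacts on the same chromosome. The members were 356 of 7674 baits, with 572 of 28991 contacts and 290 genes, in the table with single restriction fragments as baits (the original baits, with a median member length of 578.5 bp). In the table with bins of about 5 kb as baits (the extended baits), they were 881 of 11063 baits, with 2893 of 50644 contacts and 651 genes. Both tables list 281 of these genes. Of the extended baits, 1 also carried a gene of another family.

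The contacts come from capture Hi-C, which ligates neighbouring chromatin fragments cut with DpnII and enriches the ligation products of chosen promoters. Sertoli cells support germ cells in the testis and were sorted by GFP from Sox9IRES-GFP gonads (3 libraries), and their ovarian counterparts, the pre-granulosa cells, were sorted by mCherry from Enh8-mCherry gonads (2 libraries), all from E13.5 embryos and about 100000 cells each. Each table gives 1 CHiCAGO score per contact and cell type, which rises as a contact exceeds the background for its distance, so no value has a spread between libraries. A contact is listed where at least 1 cell type scored 5 or more, and a score of 5 or more was taken as a call. Read depth is unknown, the cell type labels could not be checked against marker genes because contacts are not expression, and every difference below is one between 2 pools of libraries, given without a test.

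Olfactory receptors are G protein-coupled receptors that detect odorants, and they form the largest gene family of the mouse. Each olfactory sensory neuron expresses 1 receptor gene from 1 allele, and the remaining receptor genes are held in constitutive heterochromatin in that neuron. The genes lie in tandem clusters on many chromosomes, and the class I receptors, which resemble those of fish, lie together in a single cluster on chromosome 7. They are not expected to be active in gonadal supporting cells, and no value here measures whether any of these genes was transcribed.

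Promoter sequences of 4 members show how the gene starts of this family differ in base composition. Olfr1269 and Olfr875 have the original baits with the most listed contacts in the largest clusters of chromosomes 2 and 9, and Olfr878 the extended bait with the most in the latter. Olfr1414, chosen after its values were seen, shows a GC-rich promoter, which is unusual in the family. They are the RefSeq sequences of GRCm38.p6, 250 bases before to 50 after the gene start, 5′ to 3′, with the dinucleotide CG in capitals. Promoter here means this stretch at the annotated gene start, which can be the coding start where no upstream exon is annotated. The 50 bases of Olfr1269 after its gene start begin with ATG, and the true transcription starts were not checked. Olfr1269 lies at chr2:90119547-90119846 on the minus strand, Olfr875 at chr9:37772387-37772686 on the plus strand, Olfr878 at chr9:37918298-37918597 on the plus strand and Olfr1414 at chr1:92518466-92518765 on the minus strand.
Olfr1269: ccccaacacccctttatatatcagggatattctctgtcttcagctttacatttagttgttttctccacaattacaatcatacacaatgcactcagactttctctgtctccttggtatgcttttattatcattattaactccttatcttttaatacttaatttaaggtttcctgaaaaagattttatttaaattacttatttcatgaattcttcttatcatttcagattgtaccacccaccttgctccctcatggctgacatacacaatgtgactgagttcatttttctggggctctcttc
Olfr875: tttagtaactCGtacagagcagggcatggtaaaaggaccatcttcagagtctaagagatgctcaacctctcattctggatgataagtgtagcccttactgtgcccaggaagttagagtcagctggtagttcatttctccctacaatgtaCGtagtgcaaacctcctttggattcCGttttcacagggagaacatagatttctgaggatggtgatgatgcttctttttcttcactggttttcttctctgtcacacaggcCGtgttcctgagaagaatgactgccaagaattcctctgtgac
Olfr878: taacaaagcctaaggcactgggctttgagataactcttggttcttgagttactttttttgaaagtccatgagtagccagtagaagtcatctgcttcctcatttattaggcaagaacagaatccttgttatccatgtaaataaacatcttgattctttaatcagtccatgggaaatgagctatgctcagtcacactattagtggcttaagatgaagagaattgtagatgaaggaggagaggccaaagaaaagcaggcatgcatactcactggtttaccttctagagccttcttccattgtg
Olfr1414: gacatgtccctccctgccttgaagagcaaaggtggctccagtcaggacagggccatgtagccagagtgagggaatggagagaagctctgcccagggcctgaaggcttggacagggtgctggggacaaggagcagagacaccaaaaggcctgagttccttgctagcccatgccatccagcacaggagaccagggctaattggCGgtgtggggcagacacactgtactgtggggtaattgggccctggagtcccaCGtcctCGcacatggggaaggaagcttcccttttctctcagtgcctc
GC content was 34.3% for Olfr1269, 44.7% for Olfr875, 39.7% for Olfr878 and 59.0% for Olfr1414. Olfr1269 and Olfr878 hold no CG, Olfr875 holds 4 and Olfr1414 holds 3.

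Low GC content was common to the annotated gene starts of the family. Over the 640 promoters that RefSeq gives for 637 olfactory receptor genes on these chromosomes, median GC content was 34.7%, against 53.0% over all 18612 promoters of the same length. GC content was under 40% in 78.6% of the olfactory receptor promoters and in 10.6% of all promoters, and no CG was present in 32.8% and 5.55%. TATAAA, searched on both strands like the other motifs, was found in 44.2% of olfactory receptor promoters and 13.7% of all, and TAATTA, the core of many homeodomain sites, in 19.5% and 5.22%. Both motifs are made of A and T alone, and the part of base composition in their shares was not tested. The consensus site of the Ebf factors, which act on receptor enhancers, was found in 0.94% of olfactory receptor promoters and 0.75% of all. GATC, the site cut by DpnII, was present in 51.1% and 47.7%.

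Listing itself differed between the tables. RefSeq annotates 963 olfactory receptor genes on chromosomes 1 to 9, of which 742 are protein coding and 220 pseudogenes. A bait with a listed contact was found for 285 of the protein-coding receptor genes (38.4%, 95% Wilson interval 34.98 to 41.96) with original baits and for 627 (84.5%, 81.7 to 86.9) with extended baits. The same was so for 45.9% and 66.9% of the 11224 other protein-coding genes. Receptor genes were thus listed less often than other genes with original baits and more often with extended baits. The intervals treat genes as independent, although extended receptor baits are often each other's other end. Of the pseudogenes, 4 and 21 had a listed bait. Which genes were targeted by the capture is not given in the sources used here.

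Olfactory receptor promoters had more calls in pre-granulosa cells than in Sertoli cells, while the other promoters had fewer. With original baits, 289 of the 572 contacts were called in Sertoli cells (50.5%, 46.4 to 54.6) and 382 in pre-granulosa cells (66.8%, 62.8 to 70.5), where 80.2% and 41.5% of all contacts in the table were called. With extended baits, 1734 of 2893 were called in Sertoli cells (59.9%, 58.1 to 61.7) and 2158 in pre-granulosa cells (74.6%, 73.0 to 76.1), against 78.7% and 55.9% of all contacts. Sertoli calls divided by pre-granulosa calls, the call ratio below, thus gave 0.76 with original baits and 0.80 with extended baits, and 1.97 and 1.46 over all other baits. With equal numbers of calls per cell type over all baits of a table, the receptor ratio was 0.30 with original and 0.53 with extended baits, and that of other baits 1.02 and 1.04. Intervals cover counting error only, and they treat contacts in adjacent bins as independent. The 697 pairs of extended receptor baits listed from both ends are also counted from each end. Counting each such pair once, a choice made after seeing the data, gave an extended ratio of 0.88.

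The order of the cell types turned in the original table under a stricter view. At a score threshold of 10 it held 15 Sertoli and 9 pre-granulosa calls of olfactory receptor baits, a ratio of 1.67. With contacts of at least 20 kb only, it held 103 and 79, a ratio of 1.30. In the extended table the ratio was 0.84 at a threshold of 10 and 0.83 at 20 kb or more. The other baits' ratio rose as well under those settings, to 2.55 and 2.28 with original baits and 1.70 and 1.57 with extended baits, and stayed above that of the receptor baits.

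Counted by bait, 194 of the 356 original olfactory receptor baits (54.5%) had more pre-granulosa than Sertoli calls, 102 had more Sertoli calls and 60 had equal numbers. Among all baits 22% had more pre-granulosa calls. With extended baits the numbers were 477 of 881 (54.1%), 225 and 179, beside 26.4% of all baits.

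Contacts called in both cell types were 99 with original baits (17.3%, 14.4 to 20.6) and 999 with extended baits (34.5%, 32.8 to 36.3), beside 21.7% and 34.6% of all contacts. With original baits these were 34.3% of the members' Sertoli calls and 25.9% of their pre-granulosa calls, and with extended baits 57.6% and 46.3%. Other baits shared a smaller part of their Sertoli calls (27.0% and 43.3%) and a larger part of their pre-granulosa calls (53.2% and 63.1%). Many calls in 1 cell type lay near the threshold in the other. Of the 283 original contacts called in pre-granulosa cells alone, 116 scored at least 3 in Sertoli cells, and of the 190 called in Sertoli cells alone, 85 scored at least 3 in pre-granulosa cells. These were 41.0% and 44.7%, where other original baits had 48.7% and 33.8%. Contacts called in pre-granulosa cells alone were 49.5% of the members' contacts and 19.2% of those of other original baits, and contacts called in Sertoli cells alone 33.2% and 59.0%. Scores of called contacts were alike in both cell types, with a Sertoli median of 6.03 and a pre-granulosa median of 5.97 for original baits, and of 6.80 and 6.93 for extended baits.

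**Figure D1:**
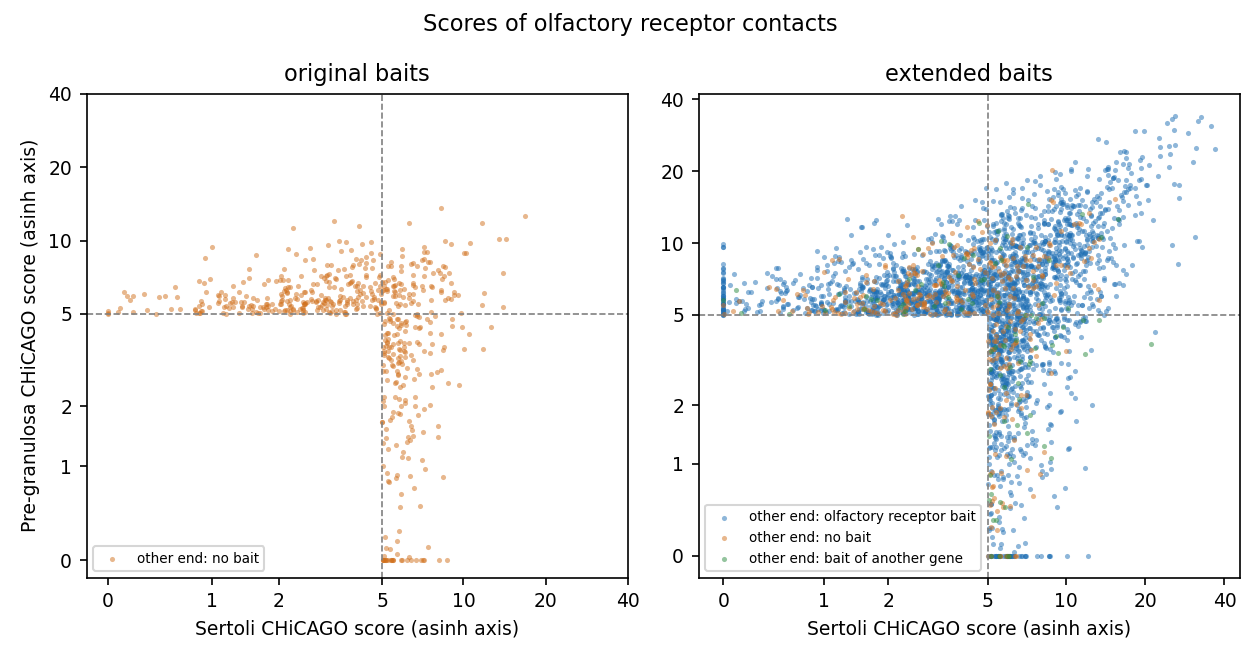
Scores of every listed olfactory receptor contact in Sertoli cells (horizontal) and pre-granulosa cells (vertical), on inverse hyperbolic sine axes, for original and extended baits. Points are coloured by what the other end carries, dashed lines mark the score of 5 at which a contact was called, and the empty lower left corner is the listing rule. The highest Sertoli score was 16.8 with original baits and 36.9 with extended baits.

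Few contacts left each promoter with original baits. Original olfactory receptor baits had 1.61 listed contacts per bait, against 3.88 for other baits, and 63.5% had a single contact, against 33.8% of other baits. Extended receptor baits had 3.28 per bait, against 4.69, and 24.7% had a single contact, against 25.2%. The median per bait was 1 for original receptor baits, against 2 for other baits, and 3 for both kinds of extended bait. The most contacts from 1 bait were 6 with original baits and 20 with extended baits.

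Contacts of olfactory receptor promoters were short. With original baits, Sertoli calls had a median distance of 8.99 kb (95% order-statistic interval 8.22 to 10.9) and pre-granulosa calls one of 8.43 kb (8.01 to 8.84), against 43.0 and 27.6 kb for other baits. With extended baits the medians were 26.4 kb (23.9 to 27.1) and 23.2 kb (22.2 to 26.3), against 48.6 and 38.7 kb. The receptor intervals of the cell types overlap in both tables, although the far end of the range differed, as the counts by distance show.

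Distance went with the balance of calls. Under 10 kb, original olfactory receptor baits had 154 Sertoli and 236 pre-granulosa calls, a ratio of 0.65, where other baits had 1.499. The ratio was 0.48 between 10 and 20 kb and 0.43 between 20 and 50 kb. From 50 to 100 kb it was 1.67 (25 and 15 calls), from 100 to 200 kb 1.59 (35 and 22), and at 200 kb or more 4.0 (28 and 7). Of those 28 Sertoli calls, 15 were listed at 0 in pre-granulosa cells, a listing that can also stand for no usable value. With extended baits the ratio was 0.77 from 10 to 20 kb, 0.73 from 20 to 50 kb, 0.86 from 50 to 100 kb, 0.95 from 100 to 200 kb and 1.14 (117 and 103 calls) at 200 kb or more. Receptor contacts under 50 kb thus had more pre-granulosa calls in both tables, while the other baits' ratio was above 1 in every band.

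**Figure D2:**
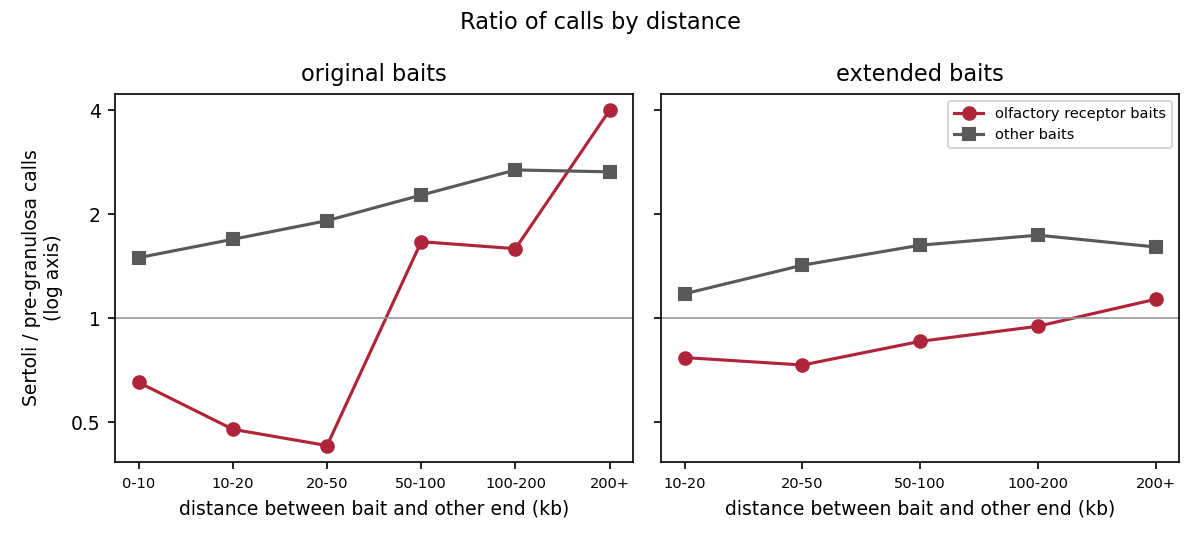
Ratio of Sertoli to pre-granulosa calls (log axis) by distance from the bait's midpoint to that of the other end, for olfactory receptor baits (circles) and all other baits (squares), in each table. Receptor baits lie below other baits in every band except 200 kb or more with original baits, where 28 and 7 calls give 4.0.

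Promoter GC content also moved with the balance. A RefSeq promoter was matched by symbol for 86.2% of original and 84.0% of extended olfactory receptor baits, and for 82.9% and 83.1% of other baits. A matched promoter overlapped the bait itself for 44.4% and 58.1% of receptor baits, so GC content describes the gene start rather than the captured fragment. Original receptor baits with GC content under 35% had 58 Sertoli and 118 pre-granulosa calls, a ratio of 0.49. The ratio was 0.72 at 35 to 40%, 1 at 40 to 45%, 1.28 at 45 to 50% and 2.70 at 50% or more, where 16 baits had 27 and 10 calls. Other baits went from 1.45 under 35% to 2.07 at 50% or more. Extended receptor baits had ratios of 0.65 under 35%, 0.84 at 35 to 40%, 1.01 at 40 to 45%, 0.97 at 45 to 50% and 1.44 at 50% or more, and other baits went from 1.02 to 1.502. The receptor ratio was below that of other baits in each band under 50% GC in both tables. The part of base composition in the balance of calls was not tested.

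**Figure D3:**
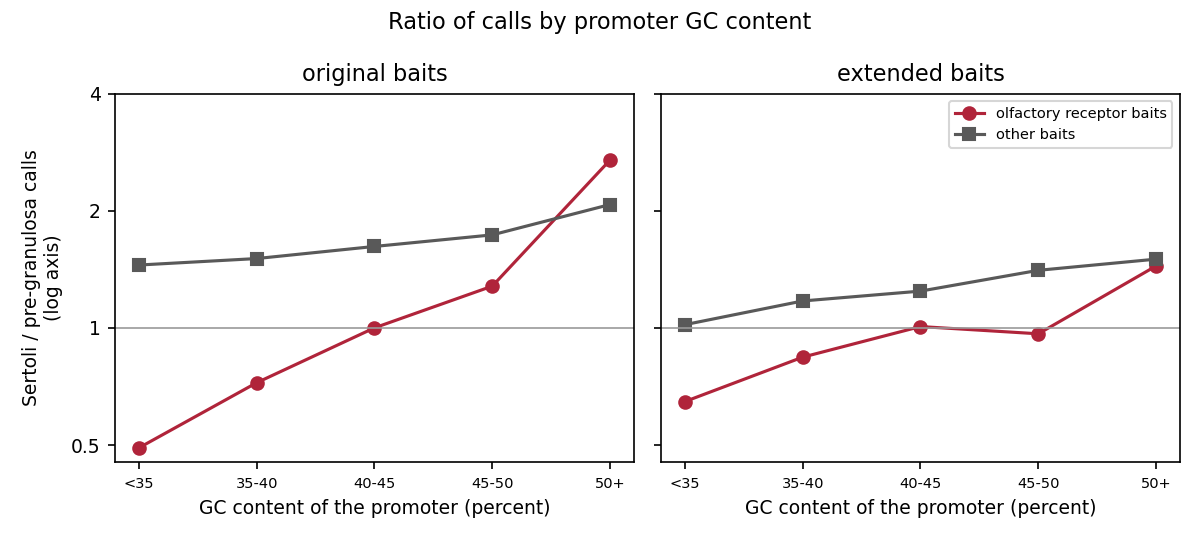
Ratio of Sertoli to pre-granulosa calls (log axis) by GC content of the matched promoter, for olfactory receptor baits (circles) and other baits (squares), in each table. Receptor baits run from 0.49 to 2.70 with original baits and from 0.65 to 1.44 with extended baits, and other baits cover a narrower range in each table.

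Most contacts stayed inside the receptor's own cluster. Clusters were chains of olfactory receptor baits pooled over both tables, with neighbours at most 1 Mb apart, and 26 were found, of which 24 had original baits. The other end lay in the bait's own cluster for 516 original contacts (90.2%, 87.5 to 92.4) and 2775 extended contacts (95.9%, 95.1 to 96.6), and in another receptor cluster for 0 in both tables, which the rule largely fixes, since different clusters lie over 1 Mb apart and few contacts reach that far. The rule also favours high own-cluster shares, since most contacts are short beside chains of up to 5077 kb. Chains of original baits alone are shorter, and 84.6% of the original contacts (81.4 to 87.3) ended inside those. Chains of the annotated receptor genes held the other end of 89.7% and 94.99% of the contacts. With extended baits, 2444 contacts (84.5%) ended on another olfactory receptor bait, 349 (12.1%) on a bin with no bait and 100 (3.46%) on a bait of another gene. Of the extended contacts of other baits, 52.5% ended on a bait outside the receptor family and 47.2% on a bin with no bait. In the original table, 99.9% of the other baits' contacts and all 572 contacts of receptor baits ended on bins with no bait name. Contacts between receptor baits had 1493 Sertoli and 1847 pre-granulosa calls, a ratio of 0.81, and contacts ending on no bait had a ratio of 0.68. Those with another gene's bait had 64 and 52 calls, a ratio of 1.23.

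Large clusters held the pre-granulosa excess. The 10 clusters with 20 or more extended baits had 217 Sertoli and 329 pre-granulosa calls with original baits (ratio 0.66) and 1485 and 1957 with extended baits (0.76). More pre-granulosa calls were found in 9 of these 10 with original baits and in 8 with extended baits. The 16 smaller clusters together had 72 and 53 calls (1.36) with original baits and 249 and 201 (1.24) with extended baits. Of the 14 with original baits, 7 had more Sertoli calls, 5 more pre-granulosa calls and 2 equal numbers, and with extended baits it was 9, 4 and 3 of 16. Without the 2 small clusters with the largest Sertoli excess in the original table (at chr1:92492626-92625139 and chr4:43705578-43856994), a choice made after seeing the data, the rest had 43 and 43 calls with original baits and 168 and 152 (1.11) with extended baits. Of the 24 clusters in both tables, 16 had the same sign of difference in both.

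The largest group on chromosome 2 spans chr2:85326922-90403539 and holds 221 extended baits. Its calls were 294 (Sertoli) and 504 (pre-granulosa) with extended baits (0.58), and 40 and 77 with original baits (0.52). The class I cluster, chr7:102476206-105373210, holds 176 extended baits and was nearer to balance, with 430 and 448 calls (0.96), and 58 and 66 with original baits (0.88). The cluster chr9:37708699-40183270, with 106 extended baits, had 211 and 327 (0.65), and 29 and 55 with original baits. The class II cluster chr7:106676873-108898871, with 82 baits, had 152 and 209 (0.73), and 19 and 47 with original baits. These 4 clusters all had more pre-granulosa calls in both tables, and their median promoter GC content ran from 32.3% to 37.3%.

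The lowest ratio among the large clusters was that of chr9:18752403-20339124, whose 26 extended baits had 15 Sertoli and 48 pre-granulosa calls (0.31), and whose original baits had 2 and 13 (0.15). Its median promoter GC content, 30.5%, was also the lowest of any cluster. The cluster chr2:111228997-112141733 had 63 and 100 calls (0.63), chr1:172953243-174451229 had 26 and 47 (0.55) and chr6:41770493-43239449 had 55 and 66 (0.83), all with extended baits. Both remaining large clusters had more Sertoli calls with extended baits. These were chr2:36371188-37328508, with 127 and 117 (1.09, but 25 and 28 with original baits), and chr7:140161538-140707249, with 112 and 91 (1.23, and 27 and 19 with original baits).

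Small clusters varied. On chromosome 1, the 10 baits of chr1:92492626-92625139 had 57 Sertoli and 34 pre-granulosa calls with extended baits (1.68) and 20 and 9 with original baits (2.22), at a median promoter GC content of 52.3% and with a median contact distance of 74.1 kb. On chromosome 4, chr4:118656318-118939177 had 45 and 25 (1.80), chr4:43705578-43856994 had 24 and 15, and chr4:52821474-52971144 had 14 and 21. Their original baits had 8 and 5, 9 and 1, and 3 and 7, in that order. On chromosome 7, chr7:6436460-6574570 had 40 and 41, chr7:86265315-86530689 had 8 and 20, and chr7:99726842-99771596 had 12 and 10. With original baits these had 9 and 8, 0 and 1, and 3 and 3. On chromosome 6, chr6:116486733-116584407 had 16 and 11 (4 and 4 with original baits) and chr6:40542240-40573560 had 8 and 8 (0 and 5). The single-gene loci chr8:85224582-85235208 (Olfr371) and chr5:143137240-143147704 (Olfr718-ps1) had 7 and 3 and 8 and 5 calls, and 8 and 2 and 3 and 2 with original baits. The other 5 loci had at most 6 calls each, at chr3:97406517-97423018, chr3:106821994-106827076, chr4:58786431-58791749, chr7:84912057-84918430 and chr8:72079575-72111892. With so few calls, most of these ratios rest on a handful of contacts.

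**Figure D4:**
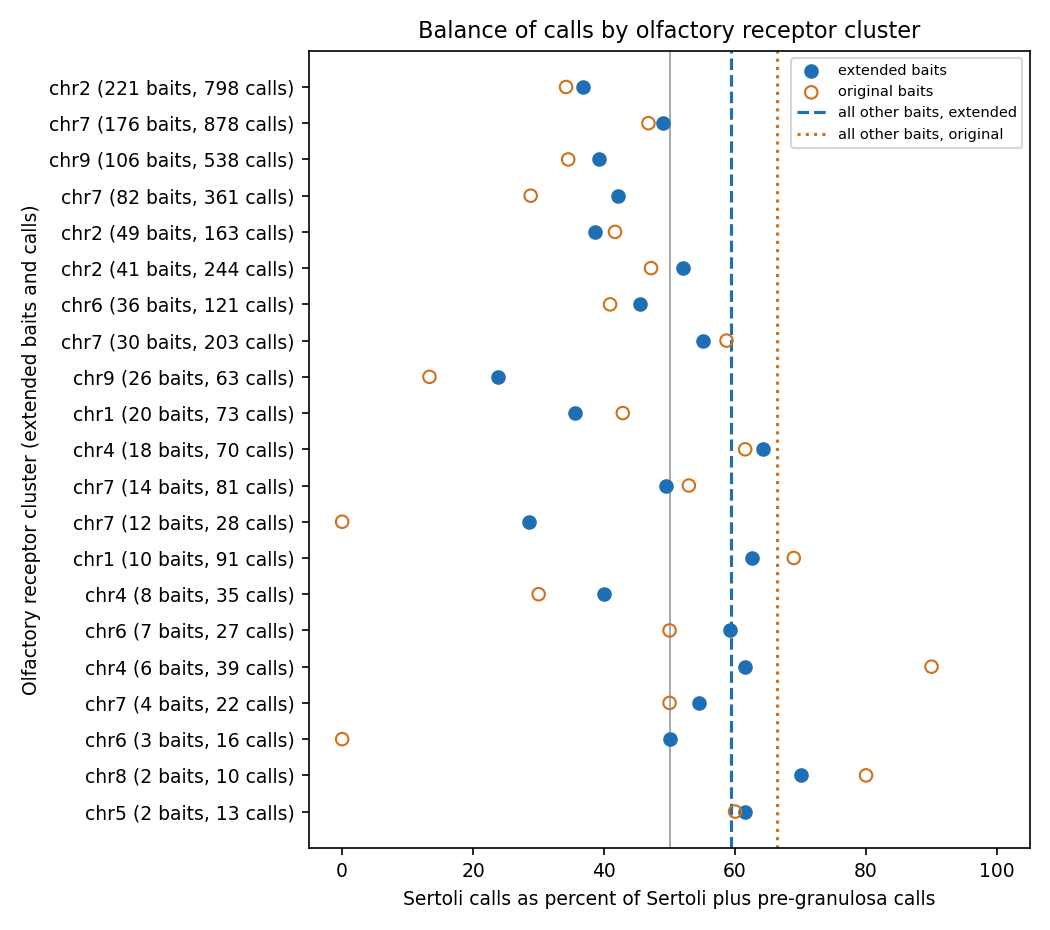
Sertoli calls as a percent of the sum of Sertoli and pre-granulosa calls for the olfactory receptor clusters with at least 10 extended calls, ordered by their number of extended baits. Filled points are extended baits, open points original baits, the solid line marks equal numbers and the broken lines mark all other baits (59.3% extended, 66.4% original). The 2 chromosome 9 clusters lie at 39.2% and 23.8% with extended baits, and the chromosome 1 cluster with 10 baits at 62.6%.

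Genes of other families inside the clusters were few. Their 58 extended baits had 83 Sertoli and 87 pre-granulosa calls (0.95), with a median promoter GC content of 45.8%, and their 19 original baits had 17 and 15 calls (1.13). These ratios lay between those of the receptors and of all other baits.

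Contacts between 2 receptor promoters were often seen from both ends. The 2444 such contacts with extended baits were 1747 different pairs, of which 697 (39.9%) were listed from both ends, and in 33 pairs both ends carry the same gene. Counted once, 1152 pairs had a Sertoli call, 1274 a pre-granulosa call and 679 both, a ratio of 0.90. Of the 697, the same cell type scored higher from both ends in 620 (89.0%), which was pre-granulosa in 438 and Sertoli in 182. The median difference between the scores of the ends was 1.82 in Sertoli and 1.92 in pre-granulosa cells, and the median difference between cell types was 3.59. The ends are read from the same ligation libraries, so they are not replicates.

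Pairs with few receptor genes between the ends were common. The median pair distance was 33.5 kb, with a median of 2 receptor genes between the ends. No receptor gene lay between the ends of 379 pairs (21.7%), which had 293 Sertoli and 325 pre-granulosa calls. A single gene lay between the ends of 446 pairs (25.5%), with 332 and 345 calls. Between 2 and 4 genes lay between the ends of 556 pairs (31.8%), with 321 and 400 calls. At 10 or more genes there were 143 pairs, with 83 and 75 calls.

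Several pairs of nearby promoters scored high in both cell types. Olfr356 and Olfr355 on chromosome 2 scored 36.9 in Sertoli and 24.8 in pre-granulosa cells, at a distance of 10.3 kb. Olfr639 and Olfr640, class I genes on chromosome 7, scored 35.6 and 30.8. Olfr48 and Olfr1256 on chromosome 2 scored 32.4 and 33.6, and Olfr1277 and Olfr1278 scored 31.6 and 32.5. The highest pre-granulosa score was that of Olfr437 and Olfr13 on chromosome 6, at 34.2, with 25.8 in Sertoli cells. All of these contacts lay far above the threshold of 5 in both cell types.

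Not every strong shared contact joined neighbours. Olfr148 and Olfr957 on chromosome 9, at -97.3 kb from bait to other end (negative towards lower coordinates), scored 24.2 in Sertoli and 31.7 in pre-granulosa cells. Olfr1414 and Olfr1410, which lie 85.8 kb apart in the GC-rich cluster of chromosome 1, scored 24.7 and 25.6. From the original bait of Olfr1414, the contact at 91.9 kb scored 10.2 and 8.93. Olfr160 and Olfr878 on chromosome 9, 202 kb apart, scored 18.2 and 17.0.

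With original baits, the leading Sertoli scores were those of Olfr1269 on chromosome 2, whose GC-poor promoter is shown above. Its bins on both sides, at 4.44 kb and -4.42 kb, scored 16.8 and 14.3 in Sertoli cells and 12.7 and 10.2 in pre-granulosa cells. Olfr365 at 4.68 kb held the highest pre-granulosa score of the original baits, 13.6, with 8.27 in Sertoli cells. Olfr357 scored 11.7 and 11.9 at 5.19 kb. Olfr46 at -6.85 kb scored 14.0 in Sertoli and 5.34 in pre-granulosa cells, and Olfr551 at -7.45 kb scored 12.6 and 4.39. In the other direction, Olfr371 on chromosome 8 scored 3.30 in Sertoli and 12.0 in pre-granulosa cells at 25.6 kb, and Olfr1260 scored 4.09 and 11.5 at 6.02 kb. Olfr71 on chromosome 4 scored 11.8 and 3.56 at -37.2 kb, and Olfr556, described next, 14.0 and 7.39 at 256 kb. Strong contacts of original baits thus lay both beside the promoter and far from it.

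A long-range contact stood out within the class I cluster. The promoters of Olfr555 to Olfr558 and those of Olfr571 and Olfr572, at 217 to 264 kb from each other, were listed in many combinations, a region singled out after its values were seen. From the bait of Olfr571, the contact with Olfr556 scored 30.8 in Sertoli and 10.6 in pre-granulosa cells, and from Olfr556 back to Olfr571 it scored 26.6 and 8.16. This is the bait named for the transcript Olfr556-203. From the same bait, the bin of Olfr572, next to that of Olfr571, scored 18.3 in Sertoli and 29.4 in pre-granulosa cells, and from Olfr572 back it scored 13.3 and 27.4. The neighbouring bait of Olfr556-201 had the Sertoli score higher with Olfr572, at 14.1 against 5.21, as had Olfr555, at 12.2 against 9.27, while Olfr558 with Olfr571 scored 1.73 in Sertoli and 6.29 in pre-granulosa cells. The 24 extended contacts listed in this region also take in Trim68, Olfr573-ps1 (at -274.6 kb) and bins without a bait. Of these 24, 14 had the higher Sertoli score and 10 the higher pre-granulosa score. With original baits it was 6 and 2 of 8, with 5.96 and 1.21 from Olfr572-203 at -251.6 kb but 2.67 and 9.38 from Olfr572-201 at -259.5 kb. Both cell types thus called contacts between these promoters, and which one scored higher varied from bin to bin.

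Of the contacts at 200 kb or more, most lay on chromosome 7, at 24 of 33 with original baits and 116 of 194 with extended baits. Those inside the cluster of their bait were 27 and 177. Sertoli calls at this distance included Olfr539 with Olfr527 on chromosome 7, 329 kb apart, at 12.1 and 10.04 from either end and listed at 0 in pre-granulosa cells from both. Olfr965 of chromosome 9, with its original bait, had a Sertoli score of 8.73 at 257 kb, with the other cell type at 0. Pre-granulosa calls listed at 0 in Sertoli cells included Olfr632 with Olfr588-ps1, 796 kb apart, at 9.96 and 5.86 from either end, and Olfr228 with Olfr1009, 765 kb apart, at 9.65 and 7.87. At 700 kb or more there were 10 extended contacts, which are 8 different pairs, 5 with a Sertoli call and 3 with a pre-granulosa call, and the longest joined Olfr970 and Olfr906 over 1325 kb (5.47 in Sertoli cells, listed at 0 in the other cell type). At 200 kb or more, original baits had 28 Sertoli and 7 pre-granulosa calls, with 15 listed at 0 in pre-granulosa cells and 0 at 0 in Sertoli cells. Extended baits had 117 and 103, with 36 and 34 listed at 0.

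The most connected receptor promoter was that of Olfr554 in the class I cluster. Its extended bait had 20 listed contacts, 19 called in Sertoli and 7 in pre-granulosa cells, 16 of them with other receptor baits and reaching 333 kb. Its original bait had 6, of which 6 and 2 were called. Olfr878 on chromosome 9 followed with 15 contacts (9 and 10 calls), and only 4 of these ended on a receptor bait. Olfr1410 on chromosome 1 had 14 (12 and 8), Olfr1264 on chromosome 2 had 14 (9 and 11) and Olfr571 had 14 (9 and 9). Olfr360 on chromosome 2 had 12 (11 and 3), all with other receptor baits. Olfr1269 had 12 (6 and 9). Among the 10 extended baits with the most contacts, 5 had more Sertoli calls, 4 more pre-granulosa calls and 1 equal numbers. All 10 original receptor baits taken as those with the most contacts had more Sertoli calls, as had 28.7% of all original receptor baits and 67.0% of other original baits. The cut at 10 falls in a tie at 4 contacts. The original bait of Olfr1269, left out, also had 4, with 3 calls in each cell type.

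Contacts with genes of other families were rare but some scored high. Olfr12 and Otos, which encodes otospiralin of the inner ear, scored 21.0 in Sertoli and 3.75 in pre-granulosa cells at 31.7 kb on chromosome 1. Olfr71 on chromosome 4 scored 15.7 and 12.6 with the bait of Spag8, a sperm protein gene, and Hint2, a mitochondrial hydrolase gene. Its contact with Npr2, the receptor of C-type natriuretic peptide, scored 10.2 and 5.32. Olfr543 and Rrm1, a subunit of ribonucleotide reductase, scored 11.6 and 4.73. Olfr1344 and Zim1, an imprinted zinc finger gene, 256 kb apart on chromosome 7, scored 7.12 and 14.7, and Olfr986 with Zfp202 scored 4.61 and 12.1. Among the 15 such contacts with the highest scores, 8 had the higher Sertoli score and 7 the higher pre-granulosa score.

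Related chemoreceptor families were set beside the olfactory receptors. Vomeronasal receptors of the Vmn1r family, which detect pheromones, had 65 Sertoli and 79 pre-granulosa calls from 56 original baits (0.82) and 122 and 145 from 94 extended baits (0.84), at median promoter GC contents of 35.7% and 33.7%. The Vmn2r family had 3 and 13 calls from 11 original baits and 6 and 10 from 12 extended baits. No Fpr or Taar bait was listed on these chromosomes, and whether these families have genes there was not checked. Pre-granulosa calls thus outnumbered Sertoli calls in all 3 listed chemoreceptor families.

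Genes of olfactory signalling and receptor choice had the other order with original baits, at promoter GC contents from 53.7% to 74.3%. There, Cnga4, a subunit of the olfactory cyclic nucleotide-gated channel, had 9 Sertoli and 0 pre-granulosa calls and Cngb1, another subunit, had 5 and 1. Gnb1, a G protein beta subunit, had 22 and 18. Among regulators, Kdm1a, a histone demethylase needed for receptor choice, had 18 and 14, Lhx2, a homeodomain factor that binds receptor enhancers, had 4 and 2, and Ebf4 had 2 and 0. Pde4a had 3 and 2, and Pde1c, with 1 and 2, was the exception among the 8 such genes with a listed original bait. Of these 8, counted by gene over all its baits, 7 had more Sertoli calls, while 67.0% of the other baits, counted singly, had more. With extended baits 7 of 12 listed genes had more Sertoli calls, 4 equal numbers and 1 fewer, and 56.0% of other extended baits had more Sertoli calls. Cnga4 then had 6 and 0, Cngb1 22 and 10, Gnb1 24 and 22 and Ebf4 5 and 3, while Kdm1a had 13 and 13 and Lhx2 4 and 4. Pde4a had 2 and 1, Atf5 3 and 2, Lbr 2 and 0, and Pde1c and Reep1 1 and 1 each. Omp, the olfactory marker protein, had 0 and 1.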

How the data were processed

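Capture Hi-C contacts of mouse Sertoli cells (3 libraries) and pre-granulosa cells (2 libraries) were taken from 2 tables of CHiCAGO scores. The authors deposited 1 score per contact and cell type over all libraries of that cell type, only for contacts at 5 or more in at least 1 cell type. The build is mm10 per the submitters' processing notes. The aligner, read filters, versions and how libraries were combined are not given in the sources used here, and depth is unknown. Distances between midpoints were used as in the authors' deposited tables.

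Members and lists were chosen with earlier results of these data known. A contact was called at a score of at least 5. Shares have 95% Wilson intervals and medians 95% order-statistic intervals, both for counting error only. With 1 value per cell type no test was possible. RefSeq tables of GRCm38.p6 gave genes and promoters, matched by symbol (289 of 290 and 648 of 651 receptor symbols). Named contacts have the highest scores, the largest differences of inverse hyperbolic sine scores, the longest distances or an end on another gene, and named baits have the most contacts. Contacts at 700 kb or more, the Olfr556 to Olfr571 region and the Olfr1414 promoter were added after their values were seen. Alternatives were other thresholds (7 and 10), contacts of at least 20 kb, merged bins, equal numbers of calls, other gene rules and other cluster gaps. The counting procedures were tested on simulated data with Python 3.11.15, pandas 2.3.3 and numpy 2.4.6. Trans contacts and X-chromosome baits were left out of the comparisons.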

Additional observations from a re-analysis of the deposited data

Results flagged for a closer look

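Contacts outside the comparisons above also showed pre-granulosa calls. Olfactory receptor baits of chromosomes 1 to 9 had 34 listed contacts with other chromosomes with original baits, of which 31 were called in pre-granulosa and 3 in Sertoli cells. They were 5.61% of the listed contacts of these baits, against 0.82% for other baits, whose 235 such contacts had 204 pre-granulosa and 32 Sertoli calls. With extended baits there were 28, of which 26 were called in pre-granulosa and 2 in Sertoli cells (0.96%, against 0.43%). Of those of other baits, 91.2% were called in pre-granulosa cells. None of the 28 extended trans contacts of receptor baits ended on another receptor bait. The original ones had none either, but other ends rarely carry a bait name with original baits. Receptor baits of the X chromosome had 12 contacts on that chromosome from 6 original baits, with 12 pre-granulosa calls and 0 Sertoli calls, and 15 from 7 extended baits, with 15 and 3. Pre-granulosa calls also prevailed on the X chromosome as a whole. Its other baits had 418 contacts with original baits, of which 77.3% were called in pre-granulosa and 31.3% in Sertoli cells, and 865 with extended baits, of which 77.3% and 42.4% were called. These values were picked out because they lie in data that the comparisons do not use. No control sample exists for them and no difference was tested. Embryos with testes and embryos with ovaries normally differ in their number of X chromosomes. Cell type and X copy number thus cannot be told apart in the X-chromosome values.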

How the results depend on the processing

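Of 104 alternatives to the main values, 59 stayed within the limit set for the value, 43 moved and 2 turned the call ratio (Sertoli over pre-granulosa) in the original table, at a threshold of 10 (1.67) and at 20 kb or more (1.30). The ratio was under 1 in 19 of 21 alternatives, and the cause of the exceptions was not tested. Where values moved, those for original baits come first. The share of other ends inside a cluster refers here to chains of each table's own baits, with main values of 84.6% and 95.9%.

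At a threshold of 7, calls were 83 in Sertoli cells, 93 in pre-granulosa cells and 27 in both (ratio 0.89), with a median distance of 7.73 kb. With extended baits they were 801, 1058 and 490, with 21.1 kb and 97.2% of other ends inside a cluster. At a threshold of 10, original baits had 15, 9 and 4 calls, with 5.84 kb and 75% inside, and extended baits 353, 421 and 197, with 16.0 kb and 98.1%. At 20 kb or more, original baits had 103, 79 and 8 calls, with 98.6 kb and 73.6% inside, and extended baits 1067, 1292 and 451, with 52.8 kb. Higher thresholds and the distance limit lower the counts by construction. With equal numbers of calls per cell type over all baits, original baits had 115 Sertoli calls and 56 in both (ratio 0.30, 8.61 kb), and extended baits 1142 Sertoli calls (ratio 0.53, 26.8 kb, 96.6% inside). Merging touching bins moved the extended median to 31.9 kb.

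Chosen after seeing the data, counting each pair of receptor baits once gave an extended ratio of 0.88, a median of 32.0 kb and 94.6% inside. Leaving out chromosome 7 or chromosome 2 gave extended ratios of 0.73 and 0.87.

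No paired analysis was possible because each cell type has 1 score column for all its libraries. Leaving out a library was not run for that reason. Depth is unknown, so a score under 5 does not show that a contact is absent.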
